A study of Mus musculus with 12 samples.

Results

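Distal regions with acetylation of lysine 27 of histone H3 (H3K27ac), without trimethylation of the same lysine (H3K27me3), were examined in mouse mesenchymal stem cells (MSCs), stromal cells able to give rise to bone, cartilage or fat, taken from young mice of 3 to 5 months and old mice of 18 to 22 months. All cells were kept at 2% O2. Each age had 3 H3K27ac libraries and 3 H3K27me3 libraries made by CUT&RUN, in which an antibody brings a nuclease to the mark and the released DNA is sequenced, and each culture was split between both antibodies. Strain, sex and tissue of origin were not given in the labels. The labels did not say whether the replicates came from separate animals, so p-values measure only the spread between these libraries, which may be technical. Members were the H3K27ac regions that lay on an autosome, were shorter than 50 kb, had their edge more than 1 kb and up to 50 kb from the nearest protein-coding transcription start site (TSS), and shared no base with any of the 28047 H3K27me3 regions. They numbered 10002 of the 31617 H3K27ac regions (31.6%). They were set beside 6523 promoter regions with H3K27ac only and 8609 regions with H3K27ac only that lay beyond 50 kb.

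H3K27ac marks active promoters and enhancers, whereas H3K27me3 marks chromatin held silent by Polycomb. Regions with H3K27ac away from any promoter are candidate enhancers, DNA elements that bind sequence-specific factors and raise the activity of a gene at some distance. In stromal cells the factors known for binding enhancers include AP-1 (dimers of FOS and JUN proteins), the TEAD factors of the Hippo pathway and the RUNX factors, which drive bone formation.

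The labelled cell type was checked on marker genes. An H3K27ac region lay within 1 kb of a TSS in 23 of 24 stromal genes, among them Pdgfra, Pdgfrb, Ly6a, Thy1, Eng, Prrx1, Twist1 and Cxcl12. Over all protein-coding genes this held for 11707 of 21840. The same was found for 3 of 19 blood cell genes (Csf1r, Fcer1g and Cd14), 1 of 12 endothelial genes (Pecam1) and 1 of 16 neural and liver genes (Dlg4). Ptprc, which defines blood cells, had no such region at its TSS and 1 member. An H3K27me3 region lay within 1 kb of a TSS in 8 of the 24 stromal genes, and in 7414 of the 21840 protein-coding genes. H3K27ac libraries held between 2750953 and 5541429 reads, and old replicate 2 was the shallowest. The median member held 15 to 26 reads in young libraries and 11 to 22 reads in old libraries, and between 194 and 1184 members a library held 3 or fewer reads.

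Sequences of 9 members are shown to let the results be read against the DNA itself. Each is 200 bases of GRCm38 (mm10), plus strand, placed around the AP-1, TEAD or RUNX letters nearest the centre of the member. Capitals mark every match on either strand to TGANTCA (AP-1), GGAATG (TEAD) or TGTGGT (RUNX).

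The first 3 lay in members with the largest gains among those higher in old cells. All were intronic, in Apbb2, in Mthfd1 (nearest TSS Akap5) and in Ank. The Apbb2 window held 1 AP-1 match, the Mthfd1 window 2 RUNX matches within a stretch rich in T and G, and the Ank window 1 TEAD match.
Apbb2, chr5:66610067-66610266: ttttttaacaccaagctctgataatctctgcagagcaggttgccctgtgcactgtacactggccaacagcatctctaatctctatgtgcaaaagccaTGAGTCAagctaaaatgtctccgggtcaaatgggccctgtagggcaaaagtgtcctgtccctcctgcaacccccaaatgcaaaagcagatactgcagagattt
Mthfd1, chr12:76317258-76317457: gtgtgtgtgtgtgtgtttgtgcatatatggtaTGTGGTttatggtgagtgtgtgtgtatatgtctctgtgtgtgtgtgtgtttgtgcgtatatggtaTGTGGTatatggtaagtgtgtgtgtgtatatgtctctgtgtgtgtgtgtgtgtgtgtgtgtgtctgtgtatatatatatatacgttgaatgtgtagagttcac
Ank, chr15:27502493-27502692: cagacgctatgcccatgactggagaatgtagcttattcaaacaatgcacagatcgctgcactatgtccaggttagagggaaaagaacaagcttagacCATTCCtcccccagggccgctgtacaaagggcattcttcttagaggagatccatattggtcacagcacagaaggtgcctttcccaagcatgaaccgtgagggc

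The next 3 lay in the members that were lower in old cells, in introns of Mgat4c, of Cpxm2 within a long annotated Fgfr2 model, and of Dnm3 (nearest TSS 4930558K02Rik). They held 1 TEAD match, 2 RUNX matches and 1 RUNX match.
Mgat4c, chr10:102125551-102125750: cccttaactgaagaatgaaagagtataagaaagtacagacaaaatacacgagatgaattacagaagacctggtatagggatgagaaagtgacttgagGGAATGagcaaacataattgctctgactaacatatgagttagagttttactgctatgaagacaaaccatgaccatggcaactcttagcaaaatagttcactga
Cpxm2, chr7:132094866-132095065: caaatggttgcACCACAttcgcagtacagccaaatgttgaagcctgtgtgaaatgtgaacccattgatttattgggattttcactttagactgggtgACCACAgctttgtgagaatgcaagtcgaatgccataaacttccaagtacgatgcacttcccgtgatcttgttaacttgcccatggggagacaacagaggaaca
Dnm3, chr1:162012680-162012879: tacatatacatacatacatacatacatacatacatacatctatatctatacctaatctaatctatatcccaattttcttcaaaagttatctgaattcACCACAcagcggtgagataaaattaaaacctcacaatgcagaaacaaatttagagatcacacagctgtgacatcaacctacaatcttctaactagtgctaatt

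The last 3 lay in the members with the highest H3K27ac signal per kb, whatever their age difference. The first and the second were intergenic, upstream of Mmp19 and of Ski, and held 1 RUNX match each. The third was in an intron of Als2cr12 and held 1 AP-1 match between 2 TEAD matches.
Mmp19, chr10:128779728-128779927: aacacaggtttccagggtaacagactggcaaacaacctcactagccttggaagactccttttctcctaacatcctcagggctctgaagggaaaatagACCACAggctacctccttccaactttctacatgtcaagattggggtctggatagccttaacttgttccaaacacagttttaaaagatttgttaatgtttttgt
Ski, chr4:155235518-155235717: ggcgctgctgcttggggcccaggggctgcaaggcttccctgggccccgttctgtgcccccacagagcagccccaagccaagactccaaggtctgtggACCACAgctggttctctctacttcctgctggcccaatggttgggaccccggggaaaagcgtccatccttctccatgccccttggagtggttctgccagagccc
Als2cr12, chr1:58652207-58652406: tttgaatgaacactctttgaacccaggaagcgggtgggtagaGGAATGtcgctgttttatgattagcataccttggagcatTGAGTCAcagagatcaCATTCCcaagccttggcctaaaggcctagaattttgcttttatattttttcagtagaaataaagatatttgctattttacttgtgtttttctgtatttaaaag

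The members were short pieces of DNA scattered through gene neighbourhoods. Their median length was 4.0 kb (interquartile range 2.5 to 8.0 kb, range 0.5 to 49.5 kb), and together they covered 66.2 Mb. The median distance to the nearest TSS was 19.9 kb. The midpoint lay in an intron for 58.9% of members, between genes for 36.2% and in an exon for 4.93%, and 42.7% of midpoints were upstream of the nearest TSS. The nearest TSS was itself within 1 kb of an H3K27ac region for 70.5% of members and of an H3K27me3 region for 27.9%, with both marks at 11.1% and neither at 12.7%. Nearest genes are labels of position, and whether a member acts on its nearest gene was not tested. In all, 5947 genes were nearest to at least 1 member, 3489 of them to exactly 1. A TSS of a long noncoding RNA lay in 539 members and the start of an annotated miRNA gene in 67. The latter is the start of the miRNA entry itself, and where its primary transcript starts was not examined.

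The level of H3K27ac in members was below that of promoter regions. Signal per length is given as RPKM, reads per kb of true region length scaled to the total reads of the library. The median member had 1.04 RPKM, against 1.20 in promoter regions and 1.10 in regions beyond 50 kb. Even coverage of the genome would give 0.367 RPKM, so the median member stood 2.83-fold above it. Intergenic members had a median of 1.16 RPKM, intronic members 0.973 and exonic members 0.891. Regions just inside and just outside the distance limits had similar signal. Medians were 1.09 RPKM for 59 regions with an edge at 0.5 to 1 kb, 1.03 for 62 members at 1 to 1.5 kb, 1.05 for 562 members at 45 to 50 kb and 1.07 for 554 regions at 50 to 55 kb.

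**Figure D1:**
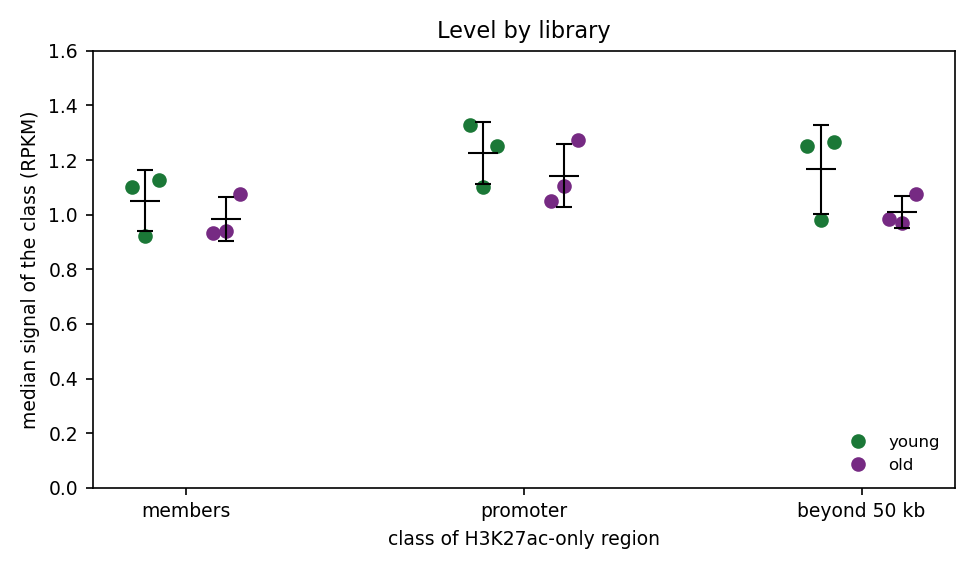
Median H3K27ac signal (RPKM over true region length, vertical axis) of members, promoter regions and regions beyond 50 kb in each of the 6 libraries, young in green and old in purple; horizontal bars and whiskers give the mean and SD of 3 libraries. Members lie below promoter regions in every library, and young and old members overlap.

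The level of members overlapped between the ages. The median member had 1.10, 0.923 and 1.13 RPKM in young replicates 1 to 3 and 0.931, 0.941 and 1.08 RPKM in old replicates 1 to 3. The means were 1.05 ± 0.111 (SD, n = 3) in young and 0.982 ± 0.0806 (SD, n = 3) in old libraries, and the groups overlapped. Members took 6.92% ± 0.739 of the reads of young libraries and 6.54% ± 0.464 of those of old libraries (SD, n = 3 each), which also overlapped. On the log2 scale, the median of members relative to promoter regions was -0.22 ± 0.064 in young and -0.22 ± 0.037 in old libraries, a difference between ages of 0.0087.

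Relative to regions beyond 50 kb, members stood lower in young than in old libraries. The log2 difference of the medians was -0.18, -0.086 and -0.17 in young replicates 1 to 3, and -0.080, -0.043 and 0.00 in old replicates 1 to 3. The groups did not overlap, but young replicate 2 and old replicate 1 were almost level. Median GC content was 44.4% in members and 42.5% in regions beyond 50 kb, and single libraries moved with GC content, as given below. The part of GC content in this difference was not tested. With 3 libraries against 3, an exact permutation test cannot give a p-value below 0.10, and none was run.

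The DNA of members differed from that of promoter regions in composition. Median GC content was 44.4% in members, 46.7% in promoter regions and 42.5% in regions beyond 50 kb. The ratio of observed to expected CpG had medians of 0.201, 0.324 and 0.183. The central 500 bases had a CpG ratio over 0.6, typical of CpG islands, in 1.62% of members and 16.1% of promoter regions. The centre is the midpoint of a region. Promoter regions had a median length of 9.5 kb, so their midpoint can lie kilobases from the TSS. Shares at promoter centres, here and below, thus describe midpoints of regions and not TSSs. Repeats covered a median of 21.2% of a member.

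AP-1 letters were concentrated at the centres of members. TGANTCA occurred in the central 500 bases of 24.6% of members, against 13.2% of promoter regions, 28.1% of regions beyond 50 kb and 22.3% of all H3K27ac regions. The share in members fell to 20.2% and 20.1% in the windows 0.5 kb to each side and to 14.7% and 13.4% at 5 kb. The same letters rearranged to TCANTGA, used as a comparison of base composition, occurred in 15.4% of central windows, 15.8% at 5 kb on the left and 15.6% on the right. AP-1 letters anywhere in the region were found in 81.5% of members and 81.0% of all H3K27ac regions. All searches covered both strands. Members with AP-1 letters at the centre had a median of 1.14 RPKM and those without had 1.01 RPKM.

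**Figure D2:**
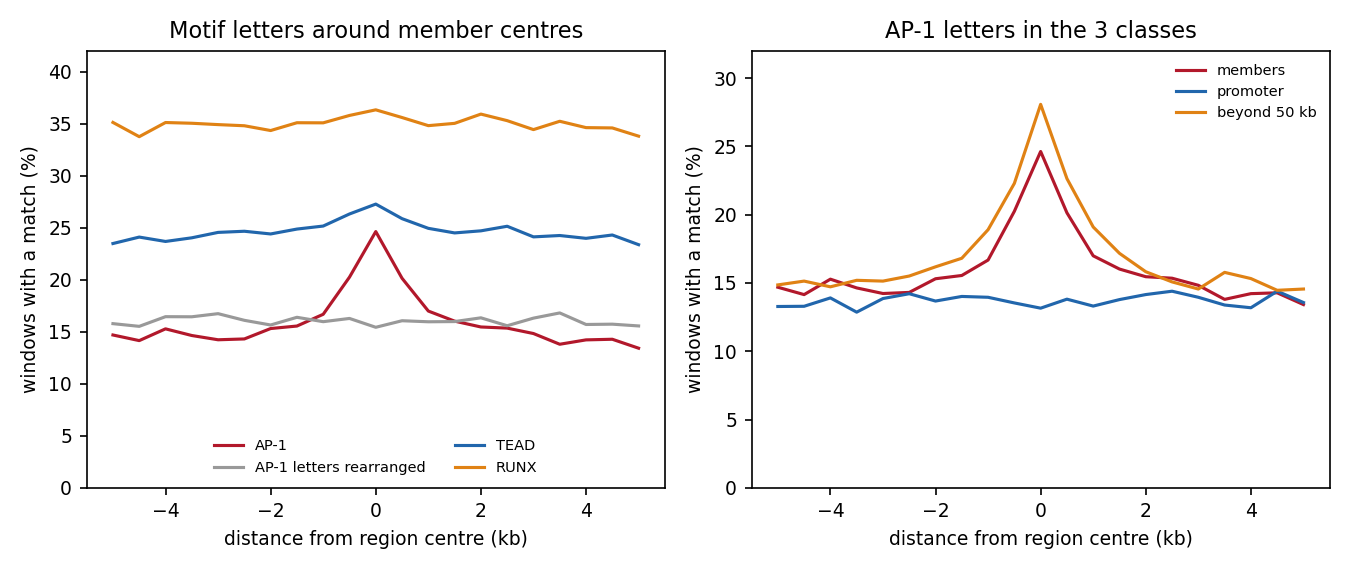
Share of 500-base windows with motif letters (%, vertical axis) by distance from the region centre (kb, horizontal axis), for 4 motifs in members on the left and for AP-1 letters in the 3 classes of region on the right. AP-1 letters rise to 24.6% at the centre of members and 28.1% beyond 50 kb, while promoter regions and the rearranged letters stay level.

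In members, the TEAD and RUNX letters varied less with position than the AP-1 letters. TEAD letters (GGAATG) occurred in 27.3% of central windows of members and 22.3% of those of promoter regions, and in 23.5% and 23.4% of windows at 5 kb. RUNX letters (TGTGGT) occurred in 36.3% of central windows of members and 31.3% of those of promoter regions, with 35.1% and 33.8% at 5 kb. The remaining letters are given at the centre alone. C/EBP letters (TTGCNNAA), bound by factors of fat cell formation, were found at 21.2% of member centres and 17.8% of promoter centres. SOX letters (ACAATG) were found at 24.9% and 20.4%. The direction was opposite for letters common in CpG-rich DNA: GGGCGG of the SP and KLF factors was found at 7.66% of member centres and 20.4% of promoter centres, and CCGGAAG of the ETS factors at 1.95% and 6.01%. The hypoxia response letters ACGTG were found at 22.0% of member centres, 25.6% of promoter centres and 19.9% of centres beyond 50 kb. In regions beyond 50 kb the central shares were 31.3% for TEAD, 35.1% for RUNX, 23.5% for C/EBP and 28.0% for SOX letters. Over all H3K27ac regions they were 27.3%, 34.6%, 21.1% and 24.6%, close to those of members. For the SP and KLF letters the shares were 5.40% beyond 50 kb and 11.2% over all regions, and for ETS letters 1.53% and 2.95%. These shares are descriptions of letters, and binding was not measured.

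Age was compared in every region of the H3K27ac table with limma, and p-values were adjusted over all 31617 regions. Of the members, 11 passed an adjusted p-value of 0.05, with 8 higher and 3 lower in old cells. Over all regions 0.0822% passed, 0.0316% higher and 0.0506% lower, against 0.110% of members. At an unadjusted p under 0.05 there were 965 members (9.65%), 585 higher and 380 lower, against 9.60% of all regions. The libraries of both ages did not overlap in 832 members higher in old cells (8.32%, against 7.09% of all regions) and in 615 members lower in old cells (6.15%, against 7.42% of all regions). The median log2 fold change of members was 0.024, of promoter regions 0.018, of regions beyond 50 kb -0.064 and of all regions -0.0028. With the signal left as deposited, without scaling by the median of ratios, the median of all regions shifted to -0.12 and 33 members passed, 12 higher and 21 lower.

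The calls rested on few libraries. Without young replicate 1 or without old replicate 2, limma called 0 members, with 648 and 748 members at an unadjusted p under 0.05. DESeq2 on the recovered reads called 2 members and edgeR called 37.

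Most of the called gains lay in regions whose deposited name carried the tag of 1 age. Each region was named with Old, Young or both, here called its state, and what the tag means and how it was set are not given in the sources used here. The state was old alone in 102 members and young alone in 18, and 9882 members had both. Called gains came from 5 members of the old state and 3 of both states, and called losses from 1 member of the young state and 2 of both. All 102 members of the old state had fold changes above 0 (median log2 fold change 1.67) and all 18 of the young state below 0 (median -1.52), so the state went with the measured direction, and whether the test of such a member is independent of it cannot be told. Of the 102, 101 touched another H3K27ac region end to end. Across all members, 235 (2.35%) touched another region in this way, and 6 of the 8 called gains but none of the losses were among them. Members that touched another region had a median log2 fold change of 0.45, and 40.0% of them reached an unadjusted p under 0.05, against 8.92% of the others. The same was seen over the whole table. Of all H3K27ac regions, 447 (1.41%) touched another, with a median of 0.29 and 39.1% at an unadjusted p under 0.05. Of these 447, 7 were called higher and 3 lower. Members that touched no other region had a median log2 fold change of 0.018, with 2 called higher and 3 lower.

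**Figure D3:**
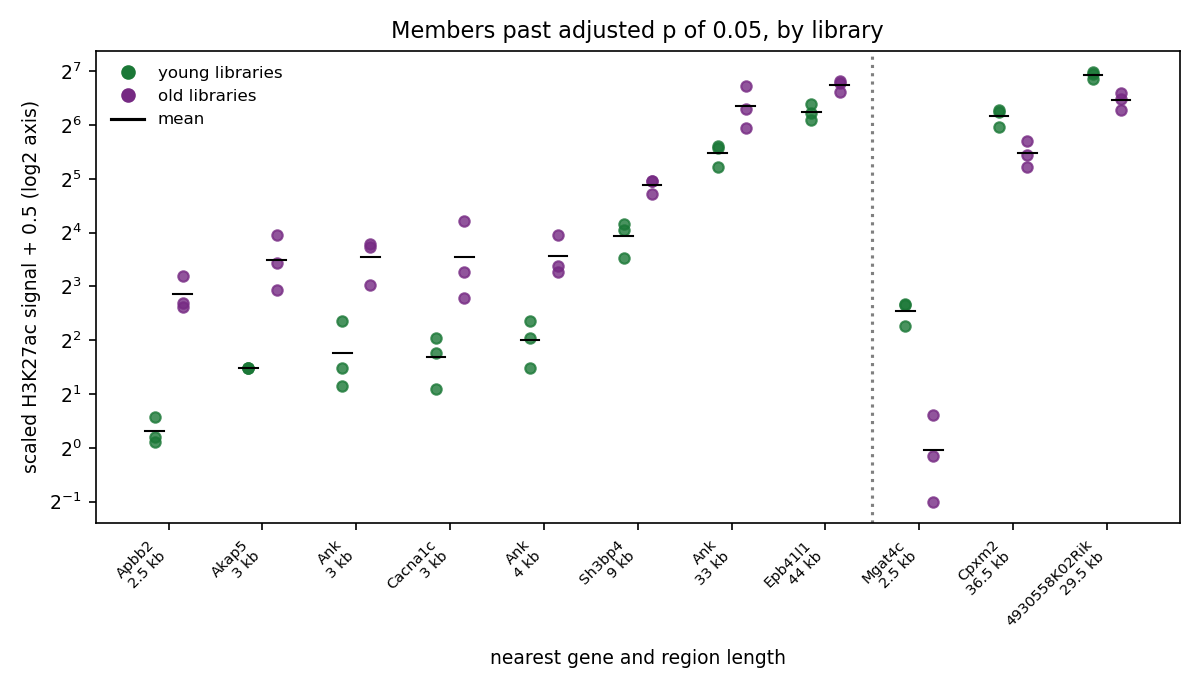
Scaled H3K27ac signal plus 0.5 (log2 axis) of the 11 members past an adjusted p-value of 0.05 in each library, young in green and old in purple; black bars are means of 3 libraries and the dotted line separates gains from losses. No member shown has overlapping ages, and the largest folds belong to short members with few reads.

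Of the 8 gains, 3 lay in 1 gene. Ank encodes a membrane protein that exports pyrophosphate, an inhibitor of mineral deposition, and its members are all on chromosome 15. In the values that follow, signal is the deposited value after scaling, where 1 read is worth between 0.36 and 0.73 before scaling. The member at chr15:27502001-27505000, 35.3 kb from the TSS, had 2.29, 1.73 and 4.605 in young replicates 1 to 3 and 12.8, 13.4 and 7.64 in old replicates 1 to 3. The fitted difference was 1.85 ± 0.35 on the log2 scale (SE, adjusted p = 0.020 by limma). The member at chr15:27473501-27477500, which begins where the promoter region ends, had 3.59, 4.62 and 2.30 in young and 9.96, 14.9 and 9.17 in old replicates (log2 fold change 1.58 ± 0.32, limma adjusted p = 0.032). Both carried the old state. The 33.0 kb member at chr15:27515501-27548500, which carried the state of both ages, had 36.6, 48.5 and 47.0 in young and 78.1, 105 and 61.2 in old replicates (log2 fold change 0.86 ± 0.15, limma adjusted p = 0.020).

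The other 5 members nearest to Ank did not pass the test. Their log2 fold changes lay from 0.46 to 1.68, 4 of them at an unadjusted p under 0.05 (4.63% of all regions in that direction) and 2 without overlap between ages (7.09% of all regions). The summed signal of these 5 was 65.3, 71.6 and 88.5 in young and 107, 164 and 83.6 in old replicates, which overlapped. Ank is described because it held 3 called members, and neighbouring members are not independent. The Ank promoter region itself had 18.0 ± 1.76 in young and 25.5 ± 7.96 in old libraries (SD, n = 3), with a log2 fold change of 0.45 that did not pass (limma adjusted p = 0.45).

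**Figure D4:**
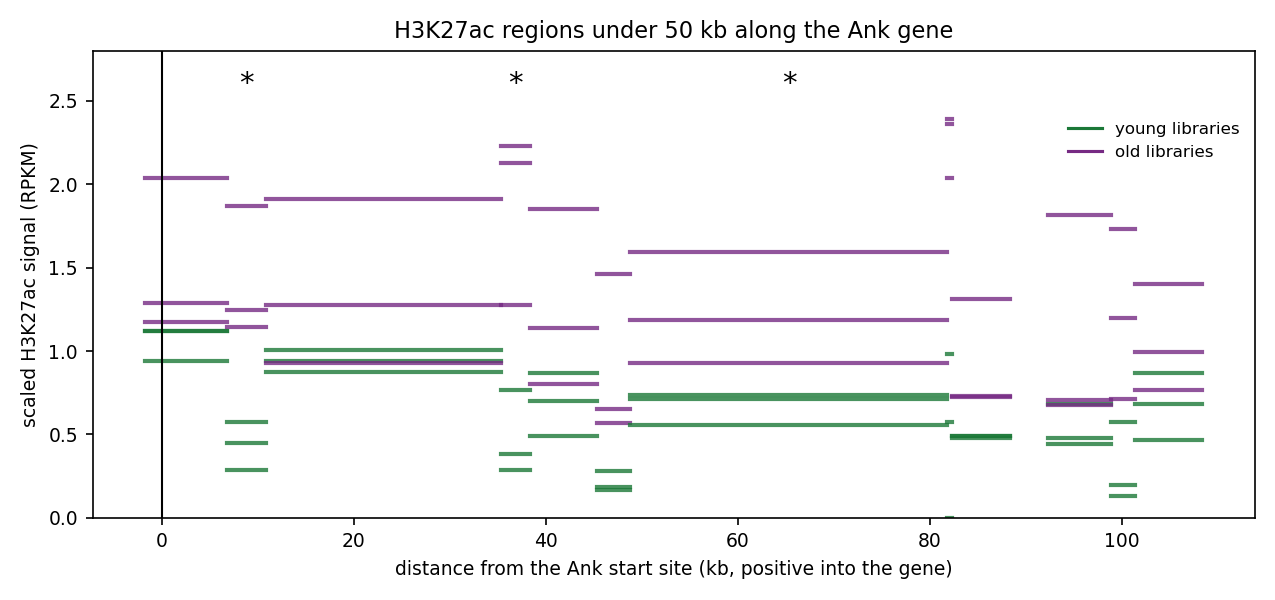
Scaled H3K27ac signal (RPKM over true length, vertical axis) of each H3K27ac region shorter than 50 kb along the 128 kb Ank gene, by distance from its TSS (kb); each line spans a region in 1 library, young in green and old in purple, and asterisks mark the 3 members past an adjusted p-value of 0.05. The regions shown have log2 fold changes from 0.45 to 1.85, and a 52.0 kb region over the end of the gene, too long to be drawn, has 0.081 with overlapping ages.

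The other gains lay in 5 genes. Apbb2, an adaptor that binds the tail of amyloid precursor proteins, held the member with the largest fold, at chr5:66609501-66612000, 6.66 kb from the TSS. It had 0.653, 0.577 and 0.987 in young replicates, which is 6 reads in all, and 5.98, 8.65 and 5.61 in old replicates, which is 37 reads. The ratio of reads scaled for depth was 8.41 (95% exact interval 3.52 to 24.4, counting error only), and the fitted difference was 2.54 ± 0.48 on the log2 scale (SE, limma adjusted p = 0.020). In Mthfd1, an enzyme of folate metabolism, the member at chr12:76316501-76319500 had 2.29, 2.31 and 2.30 in young and 10.4, 14.9 and 7.13 in old replicates (log2 fold change 1.96 ± 0.35, limma adjusted p = 0.013). Young libraries were nearly equal there, from 4 to 7 reads each.

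Cacna1c, which encodes the pore of an L-type calcium channel, had a called member at chr6:119057001-119060000, 20.0 kb from the TSS. It had 1.63, 2.89 and 3.62 in young and 6.38, 18.1 and 9.17 in old replicates (log2 fold change 1.79 ± 0.37, limma adjusted p = 0.032). The old libraries spread widely but stayed above the young. The members in Apbb2, Mthfd1 and Cacna1c all carried the old state and touched another region.

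Sh3bp4 and Epb41l1 held the 2 gains that touched no other region. Sh3bp4 encodes an adaptor of endocytosis, and its member at chr1:89102501-89111500 had 11.1, 16.2 and 17.4 in young and 30.7, 30.7 and 26.0 in old replicates (log2 fold change 0.96 ± 0.19, limma adjusted p = 0.031). Epb41l1 encodes a protein that ties the membrane to the cytoskeleton. Its 44.0 kb member at chr2:156485001-156529000 had 74.1, 68.1 and 83.9 in young and 97.3, 112 and 109 in old replicates (log2 fold change 0.49 ± 0.10, limma adjusted p = 0.039). This was the smallest called gain, in a region with 118 to 255 reads a library.

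The 3 losses differed in size. Mgat4c belongs to the glycosyltransferases that branch N-glycans, and its member at chr10:102124001-102126500, of the young state, had 5.88, 5.77 and 4.28 in young and 0.399, 0.00 and 1.02 in old replicates. These were 41 reads against 3 reads, a ratio of 10.0 scaled for depth (95% exact interval 3.20 to 50.6, counting error only), with a fitted difference of -2.71 ± 0.56 on the log2 scale (SE, limma adjusted p = 0.033). Cpxm2 encodes a protein of the carboxypeptidase family. Its 36.5 kb member at chr7:132077001-132113500 had 77.7, 62.3 and 75.6 in young and 51.8, 37.0 and 43.3 in old replicates (log2 fold change -0.71 ± 0.13, limma adjusted p = 0.019). The region at the Cpxm2 promoter was lower as well, with a log2 fold change of -0.75 (limma adjusted p = 0.024). Dnm3, a dynamin that pinches membranes, held the 29.5 kb member at chr1:161996501-162026000, with 126, 116 and 123 in young and 96.9, 77.1 and 89.2 in old replicates (log2 fold change -0.47 ± 0.099, limma adjusted p = 0.035).

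The next 3 members in the direction of loss did not pass. Upstream of Spg20 the signal was 25.3 ± 1.16 in young and 13.4 ± 3.47 in old libraries (SD, n = 3, limma adjusted p = 0.055). In Clcc1, in a member of the young state, it was 8.46 ± 0.258 and 2.40 ± 1.83 (limma adjusted p = 0.055). In an intron of Sox6, a factor of cartilage formation, it was 50.2 ± 6.35 and 32.6 ± 1.67 (limma adjusted p = 0.069). The ages did not overlap in any of these.

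The members with the highest signal per kb did not pass the age test. Mmp19, a matrix metalloproteinase, had its member 9.41 kb upstream at 3.08 RPKM, with a scaled signal of 22.5 ± 3.24 in young and 20.4 ± 3.5 in old libraries (SD, n = 3). Ski, a repressor of TGF-beta signalling, had one 8.91 kb upstream at 3.06 RPKM, with 53.3 ± 2.72 and 56.1 ± 5.79. Als2cr12, Cela3a, Uso1, Apol6, Zfp958 and Tvp23b were nearest to the other 6, at 2.49 to 2.96 RPKM. None of the 8 passed limma, at adjusted p-values from 0.43 to 0.99, and log2 fold changes ran from -0.37 to 0.78. The ages overlapped in all 8.

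Members clustered in some genes, nearly always in introns. Pde4d, which degrades cyclic AMP, was nearest to 18 members, Sorbs2, an adaptor at actin filaments, to 12, Mecom and Psd3 to 11 each, Kalrn and Pard3 to 10 each, and Slc44a1 and Ank3 to 9 each. No member of these genes passed the test. In Sorbs2, 11 of 12 members had fold changes below 0, with a median of -0.44 on the log2 scale. There, 4 were lower at an unadjusted p under 0.05 (4.97% of all regions in that direction). The summed signal of its members was 160, 164 and 173 in young and 130, 123 and 118 in old replicates, which did not overlap (ratio 0.748). In Kalrn, 9 of 10 had fold changes above 0 (median 0.32), with sums of 93.7, 108 and 119 in young and 109, 170 and 123 in old replicates, which overlapped. In Pde4d, 12 of 18 were above 0 and 6 below (median 0.26). Over all members 53.2% had fold changes above 0, and neighbouring members of a gene are not independent.

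Gene lists for the lineages and for other cells are given by counts over their nearest members. Of 33 extracellular matrix genes, 24 had a member, 55 members in all, and of 21 genes of TGF-beta signalling 16 had one, against 27.2% of all protein-coding genes. Genes with a member were 12 of 24 stromal, 9 of 20 osteogenic, 10 of 16 adipogenic, 7 of 12 chondrogenic and 12 of 20 hypoxia response genes. They were 4 of 19 blood cell genes and 2 of 16 neural and liver genes. Of the 12 endothelial genes 7 had a member, and 10 of the 12 had an H3K27me3 region at a TSS. For AP-1 and Hippo genes the count was 14 of 25, for inflammation and senescence 13 of 24 and for citrate and acetyl-CoA genes 8 of 24.

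No member of any list passed the age test. The list with the lowest median was chondrogenic, with -0.25 on the log2 scale over 14 members, against 0.024 over all members. Col11a1 was nearest to 4 of the 14 and Sox5 and Sox6 to 3 each, and neighbouring members are not independent. Of the 14 members, 10 were below 0, and 5 reached an unadjusted p under 0.05 in that direction (4.97% of all regions) and 0 in the other (4.63% of all regions). In an intron of Sox5, a partner of Sox9 in cartilage, the densest of them had 25.2, 27.7 and 23.7 in young and 22.3, 11.0 and 15.3 in old replicates (log2 fold change -0.69, limma adjusted p = 0.20). Extracellular matrix members had a median of -0.10, with 7 lower and 1 higher at an unadjusted p under 0.05. The members 46.0 and 10.5 kb upstream of Col1a2, a chain of type I collagen, were the densest, at 2.44 and 2.29 RPKM. The second had 66.6 ± 8.31 in young and 55.3 ± 11.2 in old libraries (SD, n = 3, limma adjusted p = 0.50).

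Among adipogenic genes, the densest members lay near Klf5 and Cebpa. In an intron of Klf5, an early factor of fat cell formation, the signal was 12.7, 17.9 and 11.8 in young and 5.98, 6.29 and 9.17 in old replicates, which did not overlap (log2 fold change -0.94, limma adjusted p = 0.16). Upstream of Cebpa it was 8.98 ± 0.720 in young and 9.03 ± 0.565 in old libraries (SD, n = 3). Adipogenic members had a median of 0.047 and osteogenic members one of -0.11. Hypoxia response members, with 17 in all, had log2 fold changes from -0.40 to 0.40 (median -0.075), and 0 reached an unadjusted p under 0.05. Medians were 0.12 for stromal identity, -0.073 for AP-1 and Hippo, -0.020 for TGF-beta signalling, -0.072 for inflammation and senescence and -0.21 for citrate and acetyl-CoA genes. For the cells that could contaminate a culture, medians were -0.0031 over 5 blood cell members, 0.36 over 8 endothelial members and 0.31 over 4 neural and liver members. The Pecam1 member, at a gene of endothelial cell contacts, had 6.86, 5.19 and 6.91 in young and 9.57, 11.0 and 11.2 in old replicates, which did not overlap (limma adjusted p = 0.38), and its part in other results was not tested.

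The age difference of members varied with base composition. In quintiles of members from low to high GC content, the median log2 fold change was -0.028, -0.010, 0.022, 0.036 and 0.11. In the highest quintile, from 48.2% to 62.2% GC, 63.5% of members had fold changes above 0. This quintile and the next lower one each had 4 members called higher and 0 lower. That was 0.20% of each, against 0.0316% of all regions called higher. Single libraries moved with GC content. In the highest quintile the median log2 deviation from the mean of all libraries was -0.11 in young replicate 1, 0.085 in old replicate 2 and 0.091 in old replicate 3, and within -0.010 to 0.030 in the other 3. After a correction of each library for GC content, chosen after the data were seen, the medians of the quintiles lay between 0.024 and 0.049 and 11 members were called, 10 of them shared with the uncorrected fit.

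**Figure D5:**
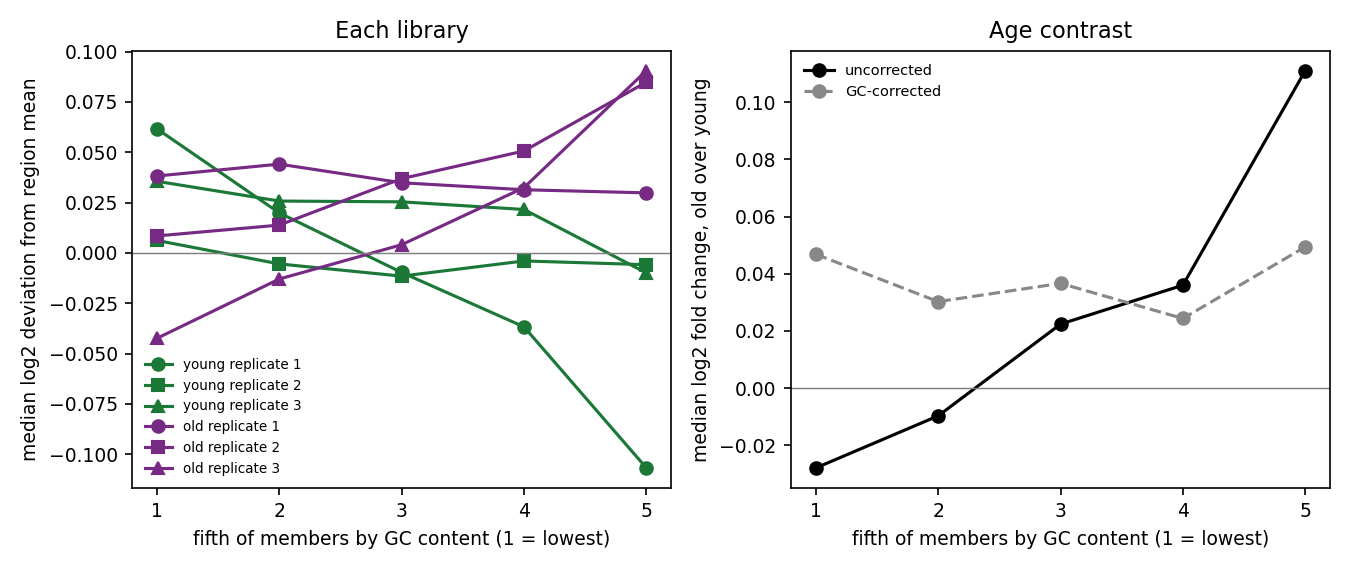
Members in quintiles of GC content (horizontal axis, lowest first): on the left, the median log2 deviation of each library from the mean of 6 libraries, and on the right, the median log2 fold change of old over young cells before and after correction of each library for GC content. Young replicate 1 falls and old replicates 2 and 3 rise with GC content, and the corrected medians are nearly level.

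By distance to the TSS, the median log2 fold changes of members ran from 0.017 at 20 to 50 kb to 0.031 at 1 to 5 kb. They were 0.039 for intronic, 0.11 for exonic and -0.013 for intergenic members. All 11 called members were intronic, as were 58.9% of all members, and 3 of the 11 lay in Ank. Members with AP-1 letters at the centre had a median of 0.022 and those without 0.024, and 0 of 2463 with these letters were called, against 11 of 7539 without, a difference that was not tested. Across genes, the mean fold change of the members of a gene and of its promoter region had a Spearman rho of 0.19 over 2973 genes. Neighbouring members at most 10 kb apart had a rho of 0.20 over 2106 pairs and those over 100 kb apart 0.031 over 3618 pairs. These points share the same 6 libraries.

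A few members varied widely within an age. Among members above the median signal, the 6 with the largest SD within ages included one of the old state in Def8 on chromosome 8, with 1.63, 2.31 and 2.63 in young and 4.38, 65.3 and 26.0 in old replicates. Old replicate 2 alone held 83 reads there. The other 5, in Slc7a2, Suco and Atp6v1h and upstream of Pik3r3 and Fam124b, all had their lowest value in old replicate 2, from 1.57 to 3.93. In Slc7a2, a transporter of cationic amino acids, the signal was 16.3, 15.003 and 12.5 in young and 14.7, 1.57 and 9.17 in old replicates.

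The 67 members with a miRNA gene held 78 such genes, of which only some are described here. Those not described include Mir144, Mir451a and Mir451b, which share the member at chr11:78070001-78074000. miRNAs pair with target RNAs through their seed, bases 2 to 8 of the mature strand. Mature sequences from RefSeq (GRCm38.p6) matched 51 of the 78 miRNA genes, and those shown were chosen after their values were seen, for how well the miRNA is known and for shared seeds. They are written 5′ to 3′ with the seed in capitals. Let-7a, let-7d and let-7f, from 1 intergenic cluster, share a seed, and so do miR-30c and miR-30e.
let-7a-5p, chr13:48538239-48538260, minus strand: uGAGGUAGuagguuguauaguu
let-7d-5p, chr13:48536078-48536099, minus strand: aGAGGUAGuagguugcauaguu
let-7f-5p, chr13:48537889-48537910, minus strand: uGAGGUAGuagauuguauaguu
miR-30c-5p, chr4:120769584-120769606, minus strand: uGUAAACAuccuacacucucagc
miR-30e-5p, chr4:120772660-120772681, minus strand: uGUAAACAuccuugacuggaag
miR-34a-5p, chr4:150068473-150068494, plus strand: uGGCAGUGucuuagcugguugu
miR-23a-3p, chr8:84208563-84208583, plus strand: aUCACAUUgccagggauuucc
miR-27a-3p, chr8:84208727-84208747, plus strand: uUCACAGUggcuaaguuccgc
miR-24-3p, chr8:84208875-84208896, plus strand: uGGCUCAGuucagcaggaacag
miR-155-5p, chr16:84714143-84714165, plus strand: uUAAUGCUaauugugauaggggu
miR-101b-3p, chr19:29135338-29135356, plus strand: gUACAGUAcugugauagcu

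None of the 67 members with a miRNA gene passed the age test, and whether they act as promoters of the miRNAs was not tested. The log2 fold change was above 0 in 49 of them (73.1%, against 53.2% of all members), with a median of 0.091. These members were longer and richer in GC than most, with medians of 10.5 kb and 46.4% against 4.0 kb and 44.4%. In the longest quintile of members 62.3% had fold changes above 0, and in the quintile richest in GC 63.5%. The part of length and GC content in this share was not tested. The let-7 member, 25.5 kb long, had a scaled signal of 79.0 ± 13.2 in young and 78.8 ± 2.89 in old libraries (SD, n = 3). The member with Mir30c-1 and Mir30e had 37.8 ± 0.259 and 41.0 ± 3.89 and did not overlap between ages (limma adjusted p = 0.85). The member with Mir23a, Mir27a and Mir24-2, 34.0 kb long, had 92.7 ± 11.3 and 96.5 ± 9.0. At Mir34a, whose product restrains the cell cycle downstream of p53, it was 62.7 ± 8.35 and 73.1 ± 3.43 (limma adjusted p = 0.53). At Mir101b the ages did not overlap, with 32.4 ± 1.11 in young and 39.6 ± 0.286 in old libraries (limma adjusted p = 0.52). At Mir155, known from inflammation, they did not overlap in the other direction, with 25.4 ± 1.48 and 22.0 ± 0.659 (limma adjusted p = 0.76). The member with Mir143 and Mir145a, miRNAs of smooth muscle and stromal cells, had the most signal of these, 146 ± 7.81 and 153 ± 21.1.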

How the data were processed

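H3K27ac CUT&RUN libraries of 3 young and 3 old cultures were compared, and 6 H3K27me3 libraries served to define the members. The submitters' processing notes name Bowtie2, Picard, mm10 and GRCm38, and the peak caller is not given in the sources used here. The yeast DNA added during the protocol was not used here. The authors deposited a signal per region and library, named RPKM. It had not been divided by region length: in every column 100% of values were whole multiples (within 0.1 read) of the value of 1 read in 0.5 kb, so reads were recovered. One deposited set of regions covered both ages, with edges in steps of 500 bp.

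TSSs came from protein-coding transcripts of the GENCODE vM21 basic set, and motifs from the GRCm38.p6 sequence (pysam 0.24.0). Each library was scaled with RLE size factors (median ratio to the mean library), and log2(signal + 0.5) was fitted with limma 3.58.1 (trend, robust, two-sided, no filter, no block) over all 31617 regions, with Benjamini-Hochberg adjustment. Fold changes on this scale understate those of regions with few reads. The fit was tested on simulated reads in which 200 members were changed. It recovered 36% of 2-fold changes and 81.5% of 4-fold changes, with 3 false calls in each run. A member that did not pass may therefore still differ between the ages. The simulated regions varied independently, with a spread set by read level alone and no drift of single libraries with GC content. Recovery and false calls in the real libraries may thus differ from these figures. Replicate numbers did not pair the libraries. edgeR 4.0.16 and DESeq2 1.42.0 were run on recovered reads as alternatives.

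The members, gene lists and motifs were chosen with earlier results of these data known. Named members were the called ones, those with the smallest p where under 6 were called in a direction, the 8 with most signal per kb, members of the 8 genes with most members, the 2 densest of each list and the 6 with the largest SD within ages. The miRNA members and the members of Ank were named after their values were seen. The lists of stromal, lineage, signalling and other cell genes were tied to members by nearest TSS. The publication supplied with the series does not report these libraries.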

Additional observations from a re-analysis of the deposited data

How the results depend on the processing

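The number of called members (11, with 8 higher and 3 lower) moved with most choices of fit. It was 33 (21 lower) on the signal as deposited, 6 (5 higher, 1 lower) with a pseudocount of 0.1, 25 (18 and 7) with one of 2, 37 (26 and 11) by edgeR and 2 (1 and 1) by DESeq2. Without trend and robust moderation limma called 0 members in either direction, with 954 at an unadjusted p under 0.05. With TMM scaling, in regions above the lower quartile of signal, on autosomes alone and after GC correction it stayed at 11. The members were the same 11 with TMM scaling and on autosomes alone. After GC correction 10 of them were shared with the main fit, and above the lower quartile 9. Leaving out 1 library gave 0 to 14 calls, 0 to 9 higher and 0 to 8 lower. With the replicate number as a block there were 23 calls, 15 higher and 8 lower, but same-numbered libraries deviated together with correlations of only 0.066, 0.017 and -0.054, so the numbers were not taken to pair the libraries. Among members that touch no other region, an alternative added after the data were seen like the GC correction, 5 were called, 2 of them higher. The median log2 fold change of members was 0.0238 and fell to -0.0891 on the signal as deposited. It stayed between 0.0131 and 0.0381 in the other fits. Each of the 11 called members was called in 8 to 13 of its 16 or 17 refits, and 0 turned direction in them. The rule gave 5017 members with an upper distance of 20 kb and between 7575 and 13837 under its other variants. The causes of these shifts were not tested. The median member held 11 reads in old replicate 2, the shallowest library, and 26 in young replicate 3, and what depth does to the number of calls was not tested.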
